A study of Mus musculus with 9 samples.

Results

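Myl7, Myl4, Sln and Bmp10 are genes whose transcripts mark atrial muscle, and they are described here across 9 RNA sequencing libraries of mouse right ventricle. They were taken by gene name from the deposited gene table, 4 of its 54532 genes, and were chosen by a measured value, their variation in FPKM between libraries of a group in earlier results of the same data. How far each varies within a group is therefore a description, given without a test. The differences between groups were tested, but a wide spread within groups makes a pass less likely and overlap more likely. All 4 passed the filter on low values (an average of 0.5 FPKM or more across the 9 libraries) that 13477 genes passed. FPKM counts fragments for each kilobase of a gene's exons relative to library size, as the authors computed it. Where 3 values are given for a group, they are in the order of its libraries 1, 2 and 3.

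The libraries came from right ventricular myocardium of wild-type C57BL/6 mice labelled postnatal day 7, in 3 groups of 3. Sham mice had a sham operation. VO mice had surgery that made a fistula, which overloads the heart with blood volume, and CsA mice had the fistula and injections of the calcineurin inhibitor cyclosporin A. All mice were thus operated and none carried a mutation or transgene by the labels. The labels give no age at harvest and do not tie libraries to single mice, so the spread behind each p-value may be technical, a spread of samples and not of animals. No group received CsA without a fistula, so an effect of the drug on the unloaded heart was not measured, and no atrial library is among the 9, so atrial restriction of these genes is background and was not checked.

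Cardiac myosin carries a regulatory and an essential light chain, and atria and ventricles use different genes for both. Myl7 encodes the atrial regulatory light chain and Myl4 the atrial essential light chain, which the embryonic ventricle also makes, while Myl2 and Myl3 encode the ventricular partners. Sln encodes sarcolipin, a small membrane protein that inhibits the SERCA calcium pump in atria and skeletal muscle, as phospholamban (Pln) does in the ventricle. Bmp10 is a secreted ligand of the receptor ALK1 (gene Acvrl1) that the embryonic heart makes in its trabeculae and the heart after birth makes mainly in the right atrium. In bulk tissue, fewer cells of a type and less RNA per cell cannot be told apart.

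In the files' GRCm38 coordinates, Myl7 (ENSMUSG00000020469) lies on chromosome 11 from 5896637 to 5898782 on the minus strand, with 7 exons and 590 exonic bases. Myl4 (ENSMUSG00000061086) lies on chromosome 11 from 104550663 to 104595753 on the plus strand, with 8 annotated transcripts and 4637 exonic bases in all. Sln (ENSMUSG00000042045) lies on chromosome 9 from 53850164 to 53854560 and Bmp10 (ENSMUSG00000030046) on chromosome 6 from 87428994 to 87437677, both on the plus strand, with 2 exons each and 1318 and 4490 exonic bases. Myl4 overlaps 4 annotated genes on the opposite strand (Gm11665, Gm22000, Gm11663 and Gm11661). The strand setting of the counting is unknown here, so reads of Myl4 and of these genes may not be separate. The FPKM of Myl4 is divided by the merged length of all its transcripts, so its level relative to the other genes depends on that gene model.

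The promoters are shown because the members' levels moved together across libraries. RefSeq (GRCm38.p6) gave 3 of the 4, and the 250 bases before each start are printed 5′ to 3′ on the gene's strand, with matches to the motifs named below in capitals.
Myl7, chr11:5898783-5899032, minus strand: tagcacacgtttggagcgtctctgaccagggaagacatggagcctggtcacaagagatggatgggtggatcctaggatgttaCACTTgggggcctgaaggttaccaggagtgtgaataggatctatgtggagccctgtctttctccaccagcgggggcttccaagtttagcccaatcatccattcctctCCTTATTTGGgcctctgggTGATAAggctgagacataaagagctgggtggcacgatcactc
Myl4, chr11:104550413-104550662, plus strand: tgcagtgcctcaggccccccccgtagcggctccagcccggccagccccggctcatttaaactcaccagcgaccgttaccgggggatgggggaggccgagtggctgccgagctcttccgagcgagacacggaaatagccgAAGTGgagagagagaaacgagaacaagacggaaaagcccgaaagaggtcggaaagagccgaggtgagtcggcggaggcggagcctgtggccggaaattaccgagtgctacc
Bmp10, chr6:87428744-87428993, plus strand: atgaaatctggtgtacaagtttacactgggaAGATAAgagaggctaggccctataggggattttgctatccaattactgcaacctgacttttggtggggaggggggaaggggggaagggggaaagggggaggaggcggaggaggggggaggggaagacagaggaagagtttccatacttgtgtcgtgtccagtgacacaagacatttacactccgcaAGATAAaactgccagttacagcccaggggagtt
Motifs of cardiac transcription factor families were searched on both strands: for GATA the letters AGATAA, the variant spelled AGATAG, the variant spelled TGATAA and the variant spelled TGATAG, for T-box factors the letters AGGTGT, for NKX2 factors the letters AAGTG, for COUP-TF the letters AGGTCA, and the MEF2 site and the CArG box by name. GATA letters occurred 1 time for Myl7, as TGATAA from -42 to -37 relative to the start, and in Bmp10 as AGATAA from -219 to -214 and from -33 to -28. They occurred in 26.5% of 32851 promoter windows of the same length. The Myl7 window also held a CArG box, the binding site of serum response factor, from -61 to -52 (CCTTATTTGG), which 1.47% of windows held. NKX2 letters occurred in Myl7 (CACTT on the printed strand, from -168 to -164) and in Myl4 (AAGTG, from -111 to -107), and in 40.7% of windows. No MEF2 site (2.92% of windows), T-box match (11.8%) or COUP-TF match (14.0%) occurred in these 3 windows, so no searched motif was shared by all 3. A match is a description of letters and was not tested as a binding site.

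The 9 libraries held 12046288 to 15986747 fragments assigned to genes, and ventricular markers were present in all of them. Myl2 lay between 511 and 1506 FPKM, Myl3 between 809 and 2527 FPKM, and Irx4, a ventricular transcription factor, between 3.01 and 10.5 FPKM. VO 3 stood apart from the other libraries, with 11.0% of fragments from mitochondrially encoded genes against 22.2% to 26.3% elsewhere. Sham 2 was the only library with transcripts of the Y-linked gene Ddx3y (18.6 FPKM), and it had Xist at 0.00401 FPKM against 10.2 to 66.3 FPKM in the other 8.

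The members split the libraries in an order that crossed the groups. Sham 1, Sham 3 and CsA 3 were the 3 highest libraries for every member, the 3 VO libraries and CsA 1 came below them, and Sham 2 and CsA 2 were the lowest. The 2 lowest libraries differed in the Y-linked transcripts, which Sham 2 had and CsA 2 did not. The part of these in the members' levels was not tested.

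**Figure D1:**
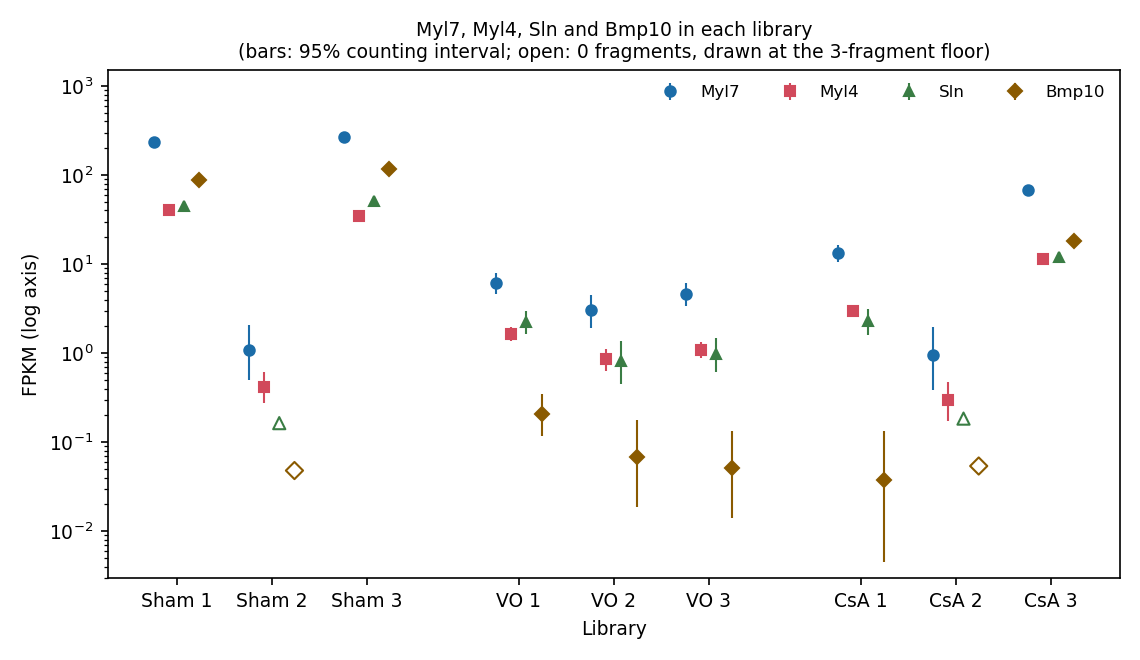
FPKM of Myl7, Myl4, Sln and Bmp10 (log axis) in each of the 9 libraries, with 95% Poisson counting intervals as bars and open symbols at the 3-fragment floor where a library had 0 fragments. Sham 1, Sham 3 and CsA 3 hold the highest values of every member, and Bmp10 alone lies far below the other members in the VO libraries and CsA 1.

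Myl7, the atrial regulatory light chain, measured 235.1, 1.10 and 269.7 FPKM in Sham. The VO libraries held 6.06, 3.02 and 4.62 FPKM of it, and the CsA libraries 13.2, 0.959 and 68.3 FPKM. The VO libraries lay within a 2.01-fold range, whereas Sham spanned 245.9-fold and CsA 71.2-fold, so Sham and CsA each reached both above and below every VO library. Group means were 168.6 ± 146.1 FPKM in Sham, 4.57 ± 1.52 in VO and 27.5 ± 35.9 in CsA (SD, n = 3 each). On the log2(FPKM + 1) scale, no tested gene had a wider range than Myl7 in Sham (7.01) or in CsA (5.14), where the median ranges of all genes were 0.27 and 0.32. In VO its range was 0.81, and 3870 of 13477 genes had a wider one.

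The depth behind the low values was small. Myl7 rested on 2023 and 2062 fragments in Sham 1 and Sham 3, on 9 in Sham 2 and 7 in CsA 2, and on 23 to 57 in VO. Counting error alone (95% Poisson intervals) put Sham 2 between 0.502 and 2.08 FPKM and CsA 2 between 0.386 and 1.98, so these 2 libraries could not be ordered. VO 2, between 1.92 and 4.54 FPKM, overlapped Sham 2, CsA 2 and VO 3 (3.40 to 6.14), and VO 3 overlapped VO 1 (4.59 to 7.85). Such intervals cover counting error only, since copies made by PCR count as fragments too.

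Myl4, the atrial and embryonic essential light chain, measured 41.0, 0.419 and 34.7 FPKM in Sham, 1.64, 0.853 and 1.09 FPKM in VO and 2.98, 0.296 and 11.4 FPKM in CsA. The same libraries were high and low as for Myl7, except that Sham 1 exceeded Sham 3. Means were 25.4 ± 21.8 FPKM in Sham, 1.19 ± 0.403 in VO and 4.90 ± 5.80 in CsA (SD, n = 3 each). Sham spanned 97.9-fold and CsA 38.5-fold, against 1.92-fold in VO, and the groups overlapped.

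Sln, the SERCA inhibitor of the atria, was at 44.3 FPKM in Sham 1, 0 in Sham 2 and 51.1 in Sham 3. The VO libraries held 2.24, 0.824 and 0.968 FPKM and the CsA libraries 2.29, 0 and 11.9 FPKM. No fragment was counted in Sham 2 and CsA 2, which allows up to 0.164 and 0.184 FPKM (3 fragments). Sham 3 lay 311.9-fold above the first limit and CsA 3 64.7-fold above the second. These folds leave out the counting error of Sham 3 and CsA 3. Group means were 31.8 ± 27.7 FPKM in Sham, 1.34 ± 0.778 in VO and 4.73 ± 6.32 in CsA (SD, n = 3 each), with overlapping groups.

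Bmp10, the ALK1 ligand, was near 0 in 6 of the 9 libraries. It measured 87.8, 0 and 116.6 FPKM in Sham, 0.210, 0.0691 and 0.0517 FPKM in VO and 0.0373, 0 and 18.0 FPKM in CsA. Only Sham 1, Sham 3 and CsA 3 had more than 15 fragments of Bmp10 (5751, 6783 and 1062), and the VO libraries had 15, 4 and 4 fragments, CsA 1 had 2, and Sham 2 and CsA 2 had 0. A count of 0 allows up to 0.0480 FPKM in Sham 2 and 0.0540 in CsA 2 (3 fragments). Sham 3 lay 2426-fold above the first limit and CsA 3 333.5-fold above the second, again without the counting error of Sham 3 and CsA 3. The VO libraries and CsA 1 were thus close to the floor of detection for this gene. Means were 68.1 ± 60.7 FPKM in Sham, 0.110 ± 0.0866 in VO and 6.02 ± 10.4 in CsA (SD, n = 3 each).

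The comparison of VO with Sham addresses what volume overload does to the postnatal right ventricle. All 4 members had lower means in VO, with differences of -2.56 to -4.30 on the log2(FPKM + 1) scale, and 0 of the 4 passed the test. By FPKM value, Sham 2 lay below every VO library for Myl7, Myl4, Sln and Bmp10, so the groups overlapped for 4 of 4. Groups did not overlap for 33.1% of all tested genes. Within counting error, Sham 2 was not separate from VO 2 for Myl7, nor from VO 2 and VO 3 for Bmp10. For Myl7 the difference was -3.24 ± 1.78 (SE, adjusted p = 0.253, limma with Benjamini-Hochberg adjustment over 13477 genes, two-sided), and Myl4 gave -2.57 ± 1.20 (adjusted p = 0.188). Sln gave -2.56 ± 1.40 (adjusted p = 0.252) and Bmp10 -4.30 ± 1.70 (adjusted p = 0.132, unadjusted p = 0.0311). Of all tested genes, 4.76% were called in this comparison (642 genes, 2.04% higher and 2.72% lower in VO). The 0 of 4 is close to that share. It and the overlap depend in part on the choice of genes with a wide spread within groups. The split of calls moved with the method, to 606 higher and 405 lower with voom and to 214 higher and 541 lower after rescaling without mitochondrially encoded genes. Voom on the recovered fragments called 1011 genes and also 0 of the 4.

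Sham 2 moved these differences the most of the 9 libraries. Without it, Bmp10 passed the limma test at -6.53 ± 1.09 (adjusted p = 0.0482), Myl7 gave -5.54 ± 1.16 (adjusted p = 0.0535), Myl4 -4.16 ± 0.74 (adjusted p = 0.0502) and Sln -4.42 ± 0.85 (adjusted p = 0.0502). Without Sham 3 the values were weaker, from -3.09 for Bmp10 to -1.57 for Sln, and without Sham 1 from -3.29 for Bmp10 to -1.67 for Sln. The count of 642 genes itself rested on single libraries: it was 0 without Sham 3, VO 1, CsA 1 or CsA 3, 1 without Sham 1, 69 without Sham 2 and 2032 without VO 3.

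The comparison of CsA with VO asks what cyclosporin A changes under volume overload, and it shares the VO libraries with the comparison above. Member means were higher in CsA, and no member passed the limma test. Myl7 gave 1.20 ± 1.78 (SE, adjusted p = 0.765), Myl4 0.88 ± 1.20 (adjusted p = 0.739), Sln 0.62 ± 1.40 (adjusted p = 0.855) and Bmp10 1.29 ± 1.70 (adjusted p = 0.731). The higher means came from CsA 3: without it the differences were -0.040 for Myl7, 0.07 for Myl4, -0.32 for Sln and -0.12 for Bmp10. The groups overlapped for 4 of 4 members and did not overlap for 21.2% of all genes. The share of all genes called was 0%, with 2219 genes at an unadjusted p under 0.05, 0 called by voom and 1 called by limma without VO 3.

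CsA compared with Sham shares libraries with both other comparisons. The members again did not pass the limma test, with -2.04 ± 1.78 for Myl7, -1.68 ± 1.20 for Myl4, -1.93 ± 1.40 for Sln and -3.02 ± 1.70 for Bmp10 (SE, adjusted p = 1 for each). The groups overlapped for 4 of 4 members and did not overlap for 9.74% of all genes. Here too 0% of all genes were called, with 200 genes at an unadjusted p under 0.05, 0 called by voom, and 1 and 3 called by limma without Sham 1 and without Sham 2. By group mean, every member was highest in Sham, then CsA, then VO, and neighbouring groups in that order did not differ beyond the spread of their libraries.

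**Figure D2:**
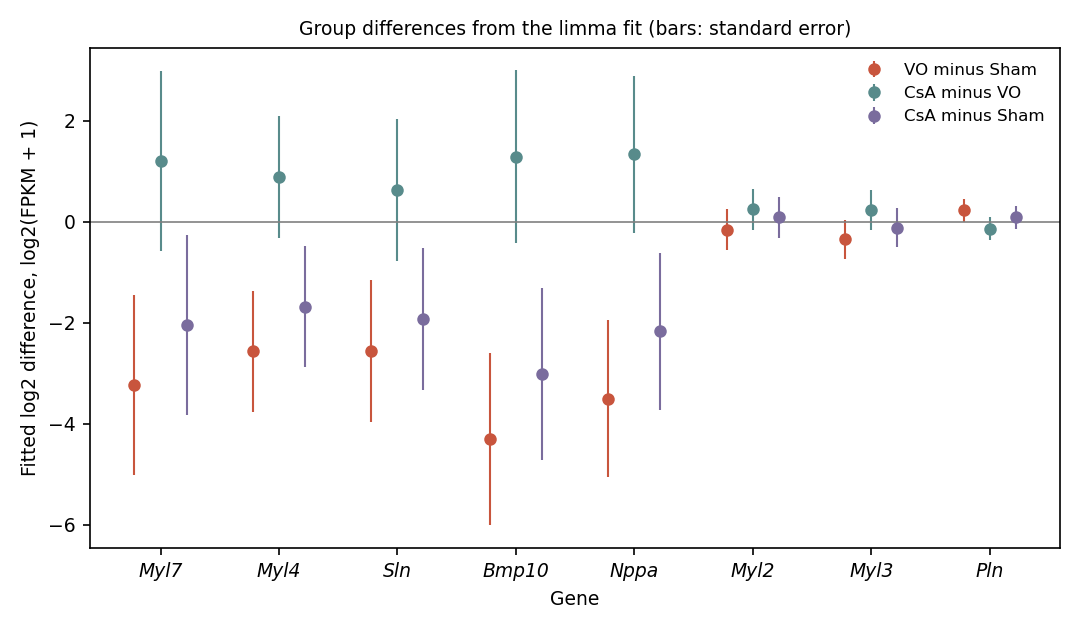
Fitted differences between groups on the log2(FPKM + 1) scale, with standard errors from limma, for the 4 members, for Nppa and for the ventricular genes Myl2, Myl3 and Pln. The members and Nppa have differences of up to -4.30 with standard errors of 1.20 to 1.78, whereas the ventricular genes lie near 0 with standard errors of 0.23 to 0.40.

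The ventricular partners did not share the members' swings in Sham and CsA. On the log2(FPKM + 1) scale, they ranged by 0.20 to 0.97 in Sham and by 0.26 to 0.50 in CsA. In VO, Myl2 (1.56) and Myl3 (1.64) ranged more than Myl7 (0.81) and Myl4 (0.51), whereas Pln (0.49) ranged less than Sln (0.83). Myl2, the ventricular regulatory light chain, differed by -0.16 ± 0.40 between VO and Sham (adjusted p = 0.827), Myl3 by -0.35 ± 0.39 (adjusted p = 0.581) and Pln by 0.23 ± 0.23 (adjusted p = 0.538). Against these partners the atrial genes were by FPKM a larger part in Sham 1, Sham 3 and CsA 3 than elsewhere. Myl7 made up 17.2%, 0.0844% and 29.0% of the summed FPKM of Myl7 and Myl2 in Sham, 1.17%, 0.331% and 0.306% in VO, and 1.39%, 0.0854% and 5.82% in CsA. The Myl7 share of this summed FPKM was thus 5.82% or more in Sham 1, Sham 3 and CsA 3 and 1.39% or less in the other 6. Its size depends on the exonic lengths by which FPKM divides. In Sham 1, 2023 fragments of Myl7 stood beside 32196 of Myl2.

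For the essential light chains the atrial part by FPKM was smaller. This gap depends on the gene models, since FPKM divides Myl4 by 4637 exonic bases and Myl7 by 590. By fragments, Myl4 exceeded Myl7 in every library (2772 against 2023 in Sham 1). Myl4 made up 2.37%, 0.0231% and 2.15% of Myl4 and Myl3 in Sham, 0.202%, 0.0749% and 0.0430% in VO, and 0.227%, 0.0161% and 0.730% in CsA. Of the summed FPKM of the SERCA inhibitors Sln and Pln, Sln made up 7.71%, 0% and 7.47% in Sham, 0.326%, 0.143% and 0.120% in VO, and 0.364%, 0% and 2.26% in CsA. Phospholamban was the main SERCA inhibitor transcript in all 9 libraries.

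Within libraries, the ratios among Myl7, Myl4 and Sln ranged far less than their levels, though beyond counting error. The FPKM ratio of Myl4 to Myl7 was 0.174, 0.382 and 0.129 in Sham, 0.270, 0.282 and 0.236 in VO, and 0.226, 0.309 and 0.167 in CsA, a 2.97-fold range. The 95% exact binomial intervals of Sham 3 (0.121 to 0.137), Sham 1 (0.165 to 0.185) and VO 1 (0.196 to 0.377) did not overlap. In the 7 libraries with Sln fragments, the ratio of Sln to Myl7 was 0.189 in both Sham 1 and Sham 3, 0.369, 0.272 and 0.210 in VO, 0.173 in CsA 1 and 0.174 in CsA 3, a 2.13-fold range, with VO 1 (0.245 to 0.553) above the interval of Sham 1 (0.174 to 0.204). Sham 2 and CsA 2, at 0 for Sln, had upper bounds of 0.227 and 0.311. The bound of Sham 2 lay below the interval of VO 1, and that of CsA 2 did not. The ratio of Nppa, the atrial natriuretic peptide precursor, to Myl7 ranged 2.88-fold over the 9 libraries, from 0.305 to 0.877.

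Bmp10 departed further from a fixed proportion. Its ratio to Myl7 was 0.374 in Sham 1 (0.355 to 0.393), 0.432 in Sham 3 (0.411 to 0.454) and 0.264 in CsA 3 (0.237 to 0.293). In VO 1 to 3 it was 0.0346 (0.0182 to 0.0619), 0.0229 (0.00574 to 0.0669) and 0.0112 (0.00293 to 0.0306), and in CsA 1 it was 0.00283 (0.000337 to 0.0105). The intervals of the 3 high libraries did not overlap those of the other 4, and the ratio spanned 153-fold. Sham 2 and CsA 2, with 0 Bmp10 fragments, had upper bounds of 0.0666 and 0.0912, below the intervals of the 3 high libraries as well.

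CsA 1 gives the plainest contrast between Bmp10 and the other members. It had 13.2 FPKM of Myl7 on 93 fragments, more than any VO library, but only 2 fragments of Bmp10. Relative to the other atrial transcripts Bmp10 spread likewise, 140-fold against Sln (7 libraries, 0.0163 to 2.28), 269-fold against Myl4 (7 libraries, 0.0125 to 3.36) and 122-fold against Nppa (7 libraries, 0.00838 to 1.02). These ratios are within-library descriptions, and the libraries with a low ratio are also those with the least Myl7.

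**Figure D3:**
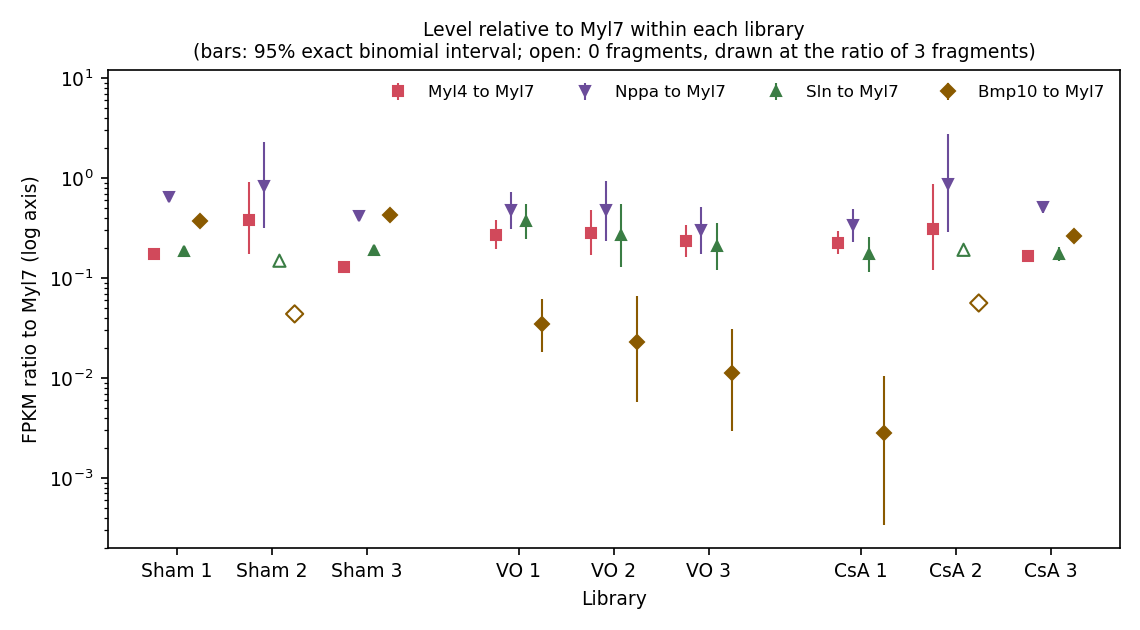
FPKM ratio of Myl4, Nppa, Sln and Bmp10 to Myl7 (log axis) within each library, with 95% exact binomial intervals as bars and open symbols at the ratio of 3 fragments where a library had 0 fragments. Myl4, Nppa and Sln stay between 0.129 and 0.877 wherever they were counted. Bmp10 lies at 0.264 to 0.432 in Sham 1, Sham 3 and CsA 3 and at 0.0346 or less in the VO libraries and CsA 1. Its open symbols in Sham 2 and CsA 2 are at 0.0438 and 0.0563.

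Across the 9 libraries the members' log2(FPKM + 1) values ran in parallel, as descriptions that share library and depth. Pearson's r with Myl7 was 0.995 for Myl4 (Spearman's rho 0.983), 0.994 for Sln (0.996) and 0.953 for Bmp10 (0.879). Without Sham 1 and Sham 3, the libraries farthest from the Myl7 median, r was 0.994, 0.986 and 0.844. With group means removed it was 0.997, 0.995 and 0.951, so the parallel course lay within groups, mostly in Sham and CsA. In VO the members ranged by only 0.20 (Bmp10) to 0.83 (Sln) on that scale. Bmp10 was the member least like the rest, with r of 0.971 to Myl4 and 0.966 to Sln.

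Among 9046 other protein-coding genes that averaged 2 FPKM or more, Nppa was the gene most like Myl7 (r = 0.988), Myl4 (0.997) and Sln (0.989) over the 9 libraries. Nppa measured 150.6, 0.914 and 113.7 FPKM in Sham, 2.90, 1.43 and 1.41 FPKM in VO and 4.46, 0.841 and 35.0 FPKM in CsA, the same high and low libraries as the members. The other 4 nearest genes of these 3 members were also the same: Dkk3, a secreted glycoprotein, Mybphl, a myosin-binding protein of atrium and conduction system, Pdlim3, a Z-disc protein, and Tbc1d1, a regulator of glucose transport, with r from 0.943 to 0.983. Of these, Pdlim3 ranged only from 4.90 to 7.67 FPKM and Tbc1d1 from 4.31 to 10.2, so a high r did not mean a large swing.

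The genes most like Bmp10 were partly different. Mybphl led (r = 0.987), before Nppa (0.981), Hamp, which encodes the iron hormone hepcidin (0.948), Tbc1d1 (0.945) and Cilp, a matrix protein (0.944, Spearman's rho 0.603). Mybphl was at 19.1, 0.0564 and 17.7 FPKM in Sham and at 0.657, 0.253 and 4.06 in CsA, but at 0.492, 0.365 and 0 in VO. Hamp was at 11.0 FPKM in Sham 1, 8.66 in Sham 3 and 0.743 in CsA 3, and at 0.189 in VO 2 and 0 in the other 5. Hamp, like Bmp10, thus had its highest values in Sham 1, Sham 3 and CsA 3.

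Other atrial genes were read from a list of 22, all of them in the table and 20 of them tested. Of the 20, 9 had r over 0.8 with Myl7 (45%), against 44 of all 13476 other tested genes (0.327%). Besides Nppa, Dkk3 and Mybphl these were Fgf12 (0.967), Tmem163 (0.948), Pam (0.861), Sbk3 (0.836), Sbk2 (0.828) and Stard10 (0.802), named here after their values were seen. The list itself was chosen with earlier results of these data known, and the 44 genes include these 9 and the other members. Both shares are therefore a description. Fgf12, an intracellular modulator of sodium channels, measured 1.98, 0 and 1.92 FPKM in Sham, 0.486, 0.150 and 0.0374 FPKM in VO and 0.216, 0.0261 and 1.02 FPKM in CsA, again high in Sham 1, Sham 3 and CsA 3.

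Other genes of the list did not follow the members. Kcnj5, a subunit of the acetylcholine-gated potassium channel, had r = 0.221 with Myl7 and lay between 17.8 and 23.7 FPKM in all 9 libraries. Nr2f2, the atrial regulator COUP-TFII that veins also express, had r = 0.128 (2.56 to 3.83 FPKM), and Gja5, the connexin of atrium, conduction system and arteries, had r = 0.508 (1.79 to 3.61 FPKM). Nppb, the brain natriuretic peptide precursor, which loaded ventricle also makes, had r = 0.009 and was at 8.70 to 99.6 FPKM.

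By group, 18 of the 20 tested atrial genes had a difference below 0 in VO against Sham and 2 above. Their median was -0.85 against 0.00 for all genes. Since 9 of the 20 had r over 0.8 with Myl7, neither value rests on 20 separate genes. Of the 20, 1 passed the limma test, close to the 4.76% of all tested genes. That gene was Tbx5, a T-box factor of atrium, left ventricle and conduction system, which fell by 1.26 ± 0.28 in VO (SE, adjusted p = 0.0408). Tbx5 measured 10.8, 5.48 and 10.2 FPKM in Sham, 4.03, 3.63 and 1.64 FPKM in VO and 4.93, 5.14 and 4.53 FPKM in CsA, so that every VO library lay below every Sham library, as groups did not overlap for 33.1% of all tested genes. The call was lost in 10 of 20 alternative settings, where the adjusted p reached 0.188, among them leaving out Sham 1 (0.188), Sham 2 (0.0502), Sham 3 (0.154), VO 1 (0.0864), CsA 1 (0.0627) or CsA 3 (0.0724). Nppa itself gave -3.50 ± 1.56 (adjusted p = 0.169). In CsA against VO, 12 of the 20 were above 0 and 8 below, with a median of 0.10 and 0 called, and in CsA against Sham 19 were below 0 and 1 above, with a median of -0.38 and 0 called.

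**Figure D4:**
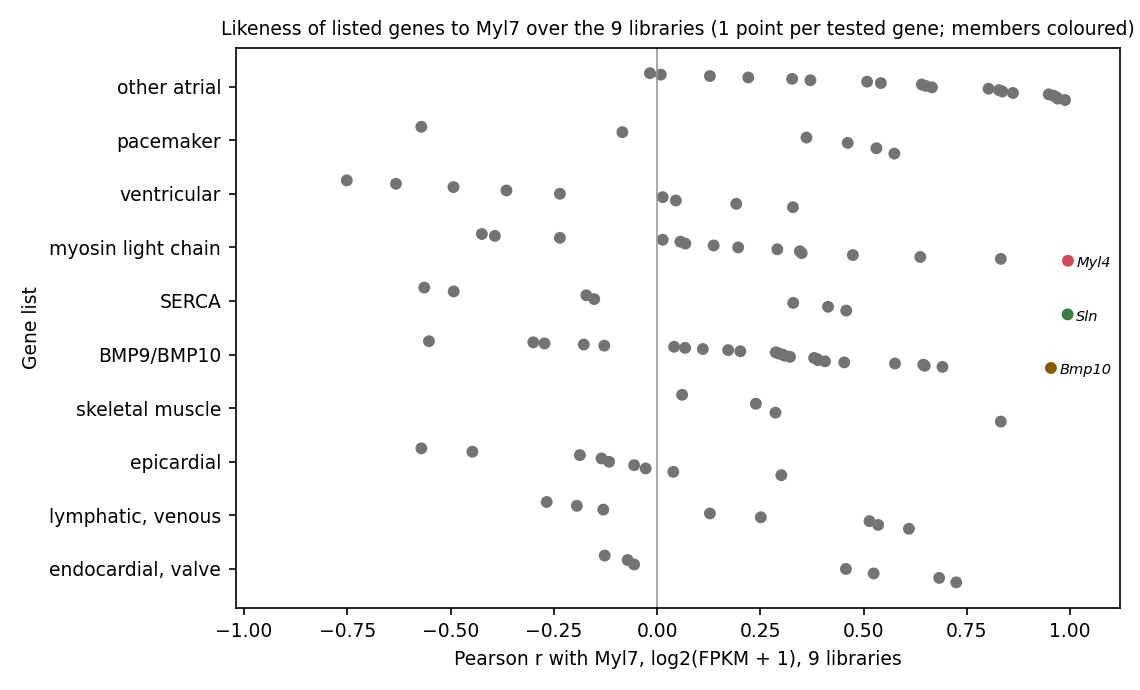
Pearson's r of each listed gene with Myl7 over the 9 libraries, on log2(FPKM + 1), with 1 point per tested gene and 1 row per gene list (vertical offsets within a row only separate points). The other members lie at 0.953 to 0.995, the atrial row reaches from near 0 to 0.988 with 9 of 20 genes over 0.8, and no pacemaker or ventricular gene exceeds 0.8.

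Markers of neighbouring cell types that the tissue could hold were set beside the members. Of 6 tested sinoatrial node and pacemaker genes, 0 had r over 0.8 with Myl7. All 10 genes of that list summed to 26.6 to 28.9 FPKM in Sham, 22.1 to 25.8 in VO and 27.0 to 30.7 in CsA. Smoc2 alone, at 12.0 to 17.5 FPKM, was a large part of that sum. Hcn4, the pacemaker channel, lay between 0.645 and 2.96 FPKM, and Isl1, a transcription factor of the node, at 0.0346 FPKM or less. In VO against Sham, 5 of the 6 were below 0 and 1 above, with 0 called by limma. The smallest p-values were those of Tbx3 (-0.64 ± 0.16, adjusted p = 0.0511) and Hcn4 (-0.67 ± 0.22, adjusted p = 0.0847). Both had VO libraries below every Sham library, as groups did not overlap for 33.1% of all tested genes. Of 9 ventricular genes 0 had r over 0.8 with Myl7, with a median r of -0.24. The other atrial genes summed to 2242 to 3036 FPKM in Sham, 1100 to 1421 in VO and 1718 to 2466 in CsA. Myh6 dominates that sum, at 905 to 2576 FPKM. It was at 2048 FPKM in Sham 2 and 2313 in CsA 2, where the members were lowest (r = 0.371 with Myl7). The sum is therefore no measure of the transcripts that follow Myl7. None of the 22 was at 0 in every library. The part of atrial cells or of the cut of the tissue in the members' levels was not tested.

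The skeletal muscle markers bear on Sln, which skeletal muscle also makes. Of 17 listed genes, 4 passed the filter and 6 had 0 fragments in every library (Myf6, Myh1, Myh2, Myh4, Myog and Tnnc2). Mylpf, the fast skeletal regulatory light chain, was at 0.553 FPKM or less. The list summed to 282.5 to 322.7 FPKM in Sham, 100.6 to 269.6 in VO and 226.8 to 288.5 in CsA, mostly Ckm, the muscle creatine kinase that heart muscle also expresses.

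The wider myosin light chain list of 16 tested genes (Myl7 and Myl4 included) had 13 differences below 0 and 3 above in VO against Sham, with a median of -0.35 and 0 called by limma. Apart from Myl4, Myl1 was the light chain most like Myl7 (r = 0.832). Myl1, an essential light chain of fast skeletal muscle, measured 20.5, 8.15 and 19.2 FPKM in Sham, 5.75, 2.73 and 7.36 FPKM in VO and 10.5, 6.82 and 12.4 FPKM in CsA. Its VO libraries lay below its Sham libraries (33.1% of all genes had no overlap), with a difference of -1.41 ± 0.39 that missed the threshold (adjusted p = 0.0596), as did Ppp1cb, a catalytic subunit of myosin phosphatase (0.70 ± 0.19, adjusted p = 0.0581). In CsA against VO 12 of the 16 were above 0 and 4 below, and in CsA against Sham 5 above and 11 below, with 0 called in each.

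Of the SERCA pumps and their regulators, 8 genes were tested and 0 called in any comparison, with 4 above and 4 below 0 in VO against Sham and a median of -0.09. Atp2a2, the cardiac pump that Sln inhibits, lay between 1366 and 2308 FPKM and differed by -0.41 ± 0.25 (adjusted p = 0.301). The smallest p-values belonged to Atp2a3, a pump of non-muscle cells (-0.63 ± 0.19, adjusted p = 0.0721), and Casq2, the calcium store protein (0.38 ± 0.19, adjusted p = 0.218). In CsA against VO 4 of the 8 were above 0 and 4 below, and in CsA against Sham 2 above and 6 below.

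The list of BMP9 and BMP10 signalling holds ligands and receptors as well as downstream genes. It had 25 tested genes (Bmp10 included) and 0 called by limma in any comparison. In VO against Sham 10 were above 0 and 15 below, with a median of -0.33. Acvrl1, the receptor of Bmp10, measured 8.25, 6.95 and 8.56 FPKM in Sham, 4.74, 6.89 and 6.39 FPKM in VO and 7.02, 9.16 and 7.05 FPKM in CsA, a far narrower range than that of its ligand. Its difference was -0.36 ± 0.17 in VO against Sham (adjusted p = 0.193), and its r with Myl7 was 0.309.

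The nearest to the threshold in that list were Bmp6, another ligand (-0.67 ± 0.18, adjusted p = 0.0575), and Eng, the co-receptor endoglin (-0.77 ± 0.22, adjusted p = 0.0631). Gdf2, which encodes the related ligand BMP9 made by the liver, lay under the filter at 0.0229 to 0.196 FPKM. In CsA against VO 16 of the 25 were above 0 and 9 below, and in CsA against Sham 8 above and 17 below.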

How the data were processed

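RNA of right ventricular myocardium was sequenced in 9 libraries, 3 each of Sham, VO and CsA, from Trizol extracts with the NEBNext Ultra chemistry, as the labels' protocols say. The authors deposited 1 table of FPKM with gene lengths and coordinates. Per the submitters' processing notes, which give no roles, the tools include GATK 3.7, DESeq2 1.20.0, featureCounts 1.5.0-p3, StringTie 1.3.3b and HISAT2 2.0.5, with mm10 and GRCm38 as builds. Neither annotation release nor strand setting is given in the sources used here. Identifiers matched GENCODE M21 for 99.8% of genes, and 98.3% of those had the same coordinates.

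Values were tested as log2(FPKM + 1), which understates changes of low genes, for the 13477 of 54532 genes that averaged 0.5 FPKM or more. One limma 3.58.1 fit (R 4.3.3) held all 9 libraries and 3 groups, with a mean-variance trend, no covariate and two-sided Benjamini-Hochberg adjustment at 0.05 per comparison. Only the limma fit of VO against Sham was tried on simulated data. The intervals, ratios and correlations were not, and the members' wide spread within Sham and CsA was not simulated. FPKM times length gave fragments within 0.1 of a whole number for 100% of values, from which Poisson and exact binomial 95% intervals and 3-fragment floors were computed. Fragment totals of 12046288 to 15986747 per library set this precision. No replicate pair agreed within sampling noise (chi-square per degree of freedom 13.1 to 31.2, and 158.8 and 220.1 for VO 3 against VO 2 and VO 1). All libraries entered the main results.

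The members and lists were chosen with earlier results of these data known. Named genes were the members, the 5 protein-coding genes averaging 2 FPKM or more that were most correlated with each, the 2 of smallest p in each list (up to 4 where some passed), and fixed genes such as Nppa, Myl2, Myl3, Pln, Acvrl1, Xist and Ddx3y. Others are named after their values were seen. The alternatives tried were a pseudocount of 0.1 or 0.5, dropping the filter, a filter at 1 FPKM, median-of-ratios scaling, no trend, rescaling without mitochondrially encoded genes, fits of only the groups compared, voom on recovered fragments, a replicate block, removal of a GC trend (loess, span 0.3, degree 1) and each library left out in turn. Python 3.11.15 with matplotlib 3.10.9 drew the figures.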

Additional observations from a re-analysis of the deposited data

How the results depend on the processing

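For the members, 235 of 240 alternative values kept their direction and side of the threshold. Bmp10 in VO against Sham passed without Sham 2 (-6.53, adjusted p = 0.0482). In CsA against VO, leaving out CsA 3 turned Myl7 (-0.040), Sln (-0.32) and Bmp10 (-0.12), while leaving out CsA 2 gave the highest values (2.53, 1.52 and 2.003), and voom turned Sln (-0.56), where Sham 2 and CsA 2 had 0 fragments. The cause of these turns beyond the library left out was not tested. Over all settings, VO against Sham ranged from -5.54 to -2.04 for Myl7 (adjusted p 0.0535 to 0.578), -4.16 to -1.71 for Myl4 (0.0502 to 0.485), -4.42 to -1.54 for Sln (0.0502 to 0.753) and -6.53 to -3.09 for Bmp10 (0.0482 to 0.627). The 642 genes called in VO against Sham became 0 with no filter, 0 with only the groups compared, 0 with the GC trend removed and 1011 with voom, and 0 to 2032 with a library left out, and the cause was not tested. The counts of 0 became 0 to 1 in CsA against VO (1 without VO 3) and 0 to 3 in CsA against Sham (1 without Sham 1, 3 without Sham 2). With a replicate block, 1 gene was called in VO against Sham and 0 in the other comparisons, no member changed its call, and Tbx5 lost its call (adjusted p = 0.0831). The labels do not say that numbers pair libraries, and same-numbered libraries had correlations of deviations from group means between -0.40 and 0.24, so the number was not taken as a pairing. Of the 20 pairs of a member and a gene like it, 15 to 20 remained with a library left out. Depth limits Bmp10 and Sln in Sham 2 and CsA 2, where no fragment was counted, and the Bmp10 ratios in VO and CsA 1, which rest on 2 to 15 fragments.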

Other observations

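Outside the atrial list, a few genes of other cell types passed the limma test in VO against Sham. Plvap, a protein of endothelial fenestrae and caveolae, fell by 0.90 ± 0.16 (SE, adjusted p = 0.0382), from 11.3, 7.24 and 10.5 FPKM in Sham to 4.58, 4.49 and 4.88 in VO, with 6.88, 7.53 and 6.75 in CsA. It was the only 1 of 7 tested endocardial and valve genes called, where 4.76% of all tested genes were called and 33.1% had groups that did not overlap. Ccl21a, a chemokine of lymphatic endothelium, fell from 5.80, 4.29 and 1.15 FPKM in Sham to 0 in all 3 VO libraries (adjusted p = 0.0391), and it was the only 1 of 8 tested lymphatic and venous genes called. With VO at 0, its fitted difference depends on the pseudocount, at -2.09 with 1 and -5.00 with 0.1. Its table holds a second gene of the same name, so its reads may be shared with that near-identical copy. Plvap lost its call in 9 and Ccl21a in 10 of 20 alternatives, with adjusted p up to 0.183 for both, leaving out Sham 1, Sham 3, VO 1, CsA 1 or CsA 3 among them for both and Sham 2 for Ccl21a. With the GC trend removed, the difference of Plvap was -0.43 (adjusted p = 0.168).

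The fat genes Ucp1 and Adipoq were counted in Sham 3 only, at 3.30 and 0.335 FPKM, and Cidea was at 10.4 to 30.6 FPKM in all 9 libraries. Of 12 tested fetal cardiac and stretch-response genes, 0 were called in any comparison. The fetal troponin I gene Tnni1 measured 0.990, 4.05 and 1.14 FPKM in Sham, 3.45, 17.6 and 10.8 FPKM in VO and 2.05, 0.584 and 4.63 FPKM in CsA. Of the 9 epicardial and 3 neural genes tested, 0 were called and 0 had r over 0.8 with Myl7.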
